A study of Homo sapiens with 56 samples.

Results

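The 10 genes described here encode transcription factors that set or hold B-cell identity: PAX5, EBF1, SPI1, SPIB, POU2F2, POU2AF1, BCL6, BACH2, IRF4 and IRF8. They were taken by gene symbol, without use of any measured value, and were 10 of the 21595 named genes in a table of 56 poly-A RNA-seq libraries. The libraries came from human mantle cell lymphoma cell lines, a B-cell lymphoma grown in culture, and the study's title names inhibition of BIRC5 and MCL-1 against drug resistance. MINO-P and JEKO-1 had 15 libraries each, MINO-VR and Z138 had 13 each, and what P and VR stand for is not stated in the labels. Treatments are given by the labels' codes. CON, read as the untreated control, had 5 libraries, 1 in each line and a second in Z138. The single agents were IBR with 11 libraries, BTZ with 6, CLF with 6, S63845 with 6 and YM155 with 4. The pairs of agents were IBR_CLF with 8 libraries, BTZ_CLF with 4, IBR_YM155 and BTZ_YM155 with 2 each, and IBR_S63845 and BTZ_S63845 with 1 each. YM155 is a small molecule that lowers expression of BIRC5 (survivin), and S63845 inhibits the MCL-1 protein. Doses, exposure times and the full names behind BTZ, IBR and CLF are not stated in the labels. Each line is a single established culture, so a difference between lines is one between cultures.

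B cells keep their identity through a network of transcription factors that sustain one another. PAX5 and EBF1 commit cells to the lineage and switch on genes of the B-cell receptor, and the ETS-family factors PU.1 (SPI1) and SPI-B (SPIB) act with them, often side by side with IRF4 or IRF8 on shared composite sites. OCT2 (POU2F2) binds the octamer motif of immunoglobulin and other B-cell promoters, and its coactivator OBF1 (POU2AF1) binds with it. BCL6 and BACH2 are repressors that hold back the plasma-cell programme, which IRF4 promotes when its level is high. Mantle cell lymphoma typically resembles a B cell that has not passed through the germinal centre, where BCL6 is highest.

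The values were counts scaled to library size (CPM). Depth, recovered from the steps between low values, was 5.52 to 21.6 M reads per library, and 3 reads were worth 0.139 to 0.543 CPM. All 10 genes lay above 3 reads in 56 of 56 libraries, and 10 of 10 passed the filter on low values and were tested. Mitochondrial genes took 1.91% to 80.5% of a library (median 6.69%), from 1.91% to 3.92% in CON, 4.11% to 67.6% in BTZ and 5.59% to 20.9% in IBR. The 6 libraries above 50% were JEKO-1 BTZ replicates 1 and 2, JEKO-1 BTZ_CLF replicates 1 and 2, and JEKO-1 IBR_CLF replicates 1 and 2, and a high mitochondrial share lowers the CPM of every other gene in a library. Of the markers of mantle cell lymphoma B cells, CCND1, SOX11, MS4A1, CD79A and CD79B were above 3 reads in 56 of 56 libraries and CD5 in 44. Of 13 measured markers of T, NK and myeloid cells, 11 had medians below 0.187 CPM, the median worth of 3 reads, among them CD3D, CD14 and LYZ. The other two were CD8A (median 0.824 CPM, above 3 reads in 36 libraries) and ITGAM (0.710 CPM, in 40 libraries, up to 13.5 CPM). CD3G had a median of 3.71 CPM in Z138 and 0 in the other lines, and LYZ had a median of 1.02 CPM in MINO-VR and a highest value of 11.4 CPM. The part of these markers in the results was not tested. Library names formed an HK series of 8 libraries, which held CON, CLF, BTZ and BTZ_CLF of MINO-P and MINO-VR, and an MCL series of the other 48. In both MINO lines, IBR and CON were therefore never in the same series. The same held there for YM155, S63845 and every pair of agents other than BTZ_CLF. Exons of SPIB share 839 bases with AC020909.1 on the same strand, and exons of PAX5, BCL6, BACH2 and POU2AF1 share 80 to 396 bases with opposite-strand genes, so reads there could come from either gene. The labels do not say whether replicates came from separate cultures, so the p-values below measure the spread between libraries, which may be technical.

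PAX5, SPIB and IRF8 were lower after both BTZ and IBR, and their promoters are shown because of this. RefSeq's GRCh38.p14 promoter table matched 8 of the 10 genes with 10 start sites (SPI1 and POU2AF1 were not matched). Each line below gives the 250 bases before the start site, 5′ to 3′ on the coding strand, with any TATAAA in capitals. They lie at chr9:37034269-37034518 on the minus strand for PAX5, and on the plus strand at chr19:50418688-50418937 for SPIB and chr16:85902580-85902829 for IRF8, whose other listed start site lies downstream. The IRF8 window lies inside the gene as annotated here, which starts at 85899116. The bases before that start were neither printed nor searched.
PAX5: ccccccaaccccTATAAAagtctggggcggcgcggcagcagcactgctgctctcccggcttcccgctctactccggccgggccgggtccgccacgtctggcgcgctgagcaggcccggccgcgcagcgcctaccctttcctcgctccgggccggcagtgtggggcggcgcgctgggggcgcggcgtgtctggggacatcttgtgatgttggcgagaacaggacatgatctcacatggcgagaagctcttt
SPIB: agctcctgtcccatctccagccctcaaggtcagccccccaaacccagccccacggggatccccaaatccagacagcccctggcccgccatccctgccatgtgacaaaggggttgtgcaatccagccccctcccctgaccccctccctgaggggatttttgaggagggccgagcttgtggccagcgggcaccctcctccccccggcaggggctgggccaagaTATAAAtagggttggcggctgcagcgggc
IRF8: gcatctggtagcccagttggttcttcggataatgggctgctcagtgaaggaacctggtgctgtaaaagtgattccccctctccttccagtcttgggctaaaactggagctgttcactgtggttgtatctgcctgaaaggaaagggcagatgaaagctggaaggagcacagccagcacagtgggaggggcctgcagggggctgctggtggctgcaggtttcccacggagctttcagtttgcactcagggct
The SPIB promoter held TATAAA from position -29, the usual place of a TATA box, and so did the IRF4 promoter, from position -32. In PAX5 the same letters began at -238, and in the IRF8 window they were absent. TATAAA was found in 11.53% of 35116 promoters of the same 300-base window (250 before the start site and 50 after it), counting both strands. TATAAA and the NF-kB site were added to the search after the sequences had been read.

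The 10 promoters of the 8 genes were also searched on both strands for sites of the factors themselves. The octamer ATGCAAAT, bound by OCT2, occurred in none of them and in 1.77% of all promoters. The EBF palindrome (TCCC, any 2 bases, GGGA; 1.21% of all promoters) and the PU.1 site GAGGAAGT (2.59%) did not occur in them either. The same held for the interferon-stimulated response element (GAAA, any 2 bases, GAAA; 3.57%), an NF-kB site (GGG, any 2 bases, TTTCC; 1.91%) and the Maf recognition element (TGC before TGAGTCA; 0.15%), which contains the AP-1 site. An ETS-IRF composite (GGAA, any 2 bases, GAAA), found in 2.82% of promoters, was present once, in EBF1 from position -33 as GGAAGTGAAA. The AP-1 site TGACTCA, found in 4.95%, was present once, at -77 from the downstream of the 2 listed BCL6 start sites. GC content ran from 50.3% at that BCL6 start to 74.0% at IRF4, against a median of 58.7% over all promoters. The EBF1, POU2F2, IRF8 and BCL6 windows lie inside their annotated genes. The bases before the outermost starts of these genes were not searched. The matches above describe the letters of the windows and are not evidence of binding.

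In untreated cells the factors differed widely in level, and the top and bottom of the order were shared by most lines. Per kilobase of exon, IRF4 ranked first in MINO-P (210 CPM per kb), MINO-VR (134) and Z138 (136), with SPIB second at 146, 54.4 and 46.1 CPM per kb. In JEKO-1, IRF8 (77.9 CPM per kb) and SPIB (76.5) ranked first and second while IRF4 stood at 38.5, and with 1 untreated library the order of the first 2 has no replicate check. BCL6 ranked last, at 10 of 10, in all 4 lines, between 0.181 and 0.578 CPM per kb. The order in between varied by line: POU2F2 ranked from 3 (MINO-VR) to 8 (Z138), SPI1 from 3 (JEKO-1) to 6 (Z138), and EBF1 from 5 (Z138) to 9 (JEKO-1). Over all 56 libraries BCL6 ran from 0.538 to 19.1 CPM, with a median of 4.57. The plot of levels by line shows every library.

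**Figure D1:**
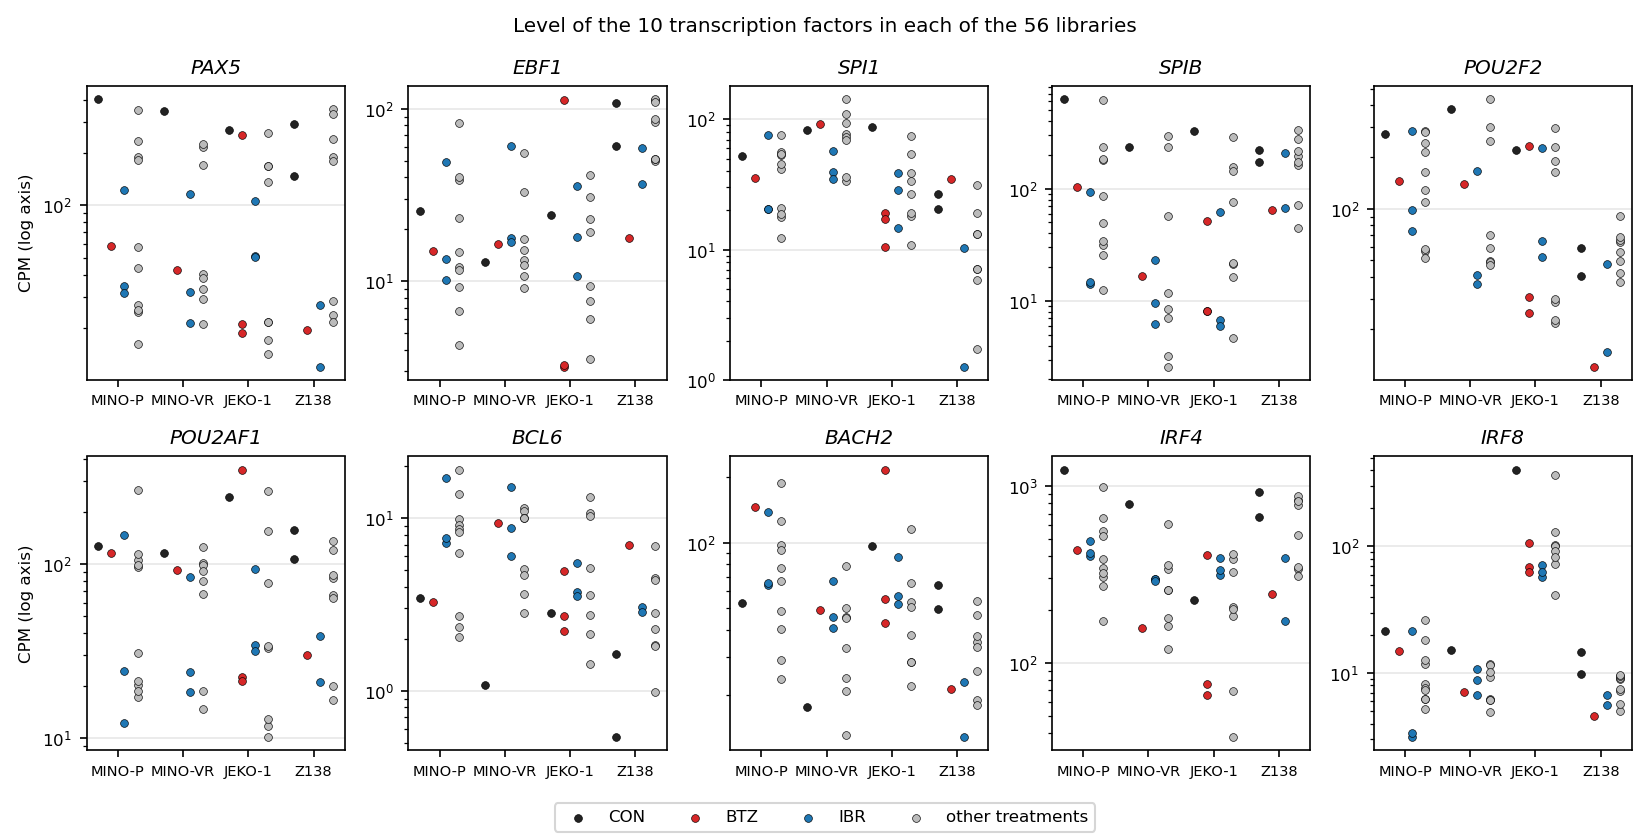
CPM (log axis) of each of the 10 genes in each of 56 libraries, by cell line. Points are single libraries (black CON, red BTZ, blue IBR, grey the other treatments). In the IRF8 panel all 15 JEKO-1 libraries, at 41.3 CPM or more, lie above every library of the other lines, whose highest is 26.3 CPM. In the SPIB panel the 6 BTZ points, at 104 CPM or less, lie below all 5 CON points, at 172 CPM or more.

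IRF8 was the factor whose JEKO-1 libraries all lay apart from the other lines. It encodes an interferon regulatory factor that partners PU.1 in B cells and myeloid cells (ENSG00000140968, hg38 chromosome 16, 85899116 to 85922607). In JEKO-1, IRF8 ran from 41.3 to 402 CPM with a median of 82.7 over 15 libraries. In the other lines it ran from 3.13 to 26.3 CPM in MINO-P, 4.96 to 15.3 in MINO-VR and 4.61 to 14.8 in Z138. No JEKO-1 library overlapped any other line. The share of all genes that set a line apart in this way is not given here. The comparisons were made with limma on log2(CPM + 1), with treatment, cell line and library series in 1 model. JEKO-1 exceeded MINO-P in IRF8 by 3.06 on the log2 scale (SE 0.28, adjusted p = 6.27e-13), and the change from JEKO-1 to Z138 was -3.72 (SE 0.25, adjusted p = 2.25e-18). Its mean was higher in JEKO-1 than in MINO-P in 8 of 8 shared treatments, and lower in Z138 than in JEKO-1 in 7 of 7.

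JEKO-1 differed from MINO-P in 2 of the 10 factors, 1 in each direction, where 37.3% of the 16498 genes tested were called at an adjusted p under 0.05 (12% higher and 25.3% lower). That split depended on the scaling: 1987 of 6156 called genes were higher on the deposited scale, 3915 of 6725 with mitochondrial genes left out and 3507 of 6796 with size factors. The median over all genes moved from -0.18 to 0.06 and 0.01. Beside IRF8, IRF4 was the other. IRF4 drives the late steps of B-cell differentiation and is a survival factor in several lymphomas (ENSG00000137265, hg38 chromosome 6, 391739 to 411444). Untreated cells held 1237 CPM of it in MINO-P, 789 in MINO-VR, 227 in JEKO-1 and 930 and 670 in Z138, so JEKO-1 lay below every other untreated library. On the log2 scale JEKO-1 differed from MINO-P by -0.82 (SE 0.25, adjusted p = 0.0083). With mitochondrial genes left out of the CPM it was -0.42 (adjusted p = 0.12), and with size factors -0.51 (adjusted p = 0.0538).

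Z138 differed from JEKO-1 in 7 of the 10, 3 higher and 4 lower, against a background of 57.5% of genes called, 40.4% higher and 17.1% lower. The split turned with the scaling. With mitochondrial genes left out, 1 factor was higher and 6 were lower, with 4425 of 9377 called genes higher against 6672 of 9491 on the deposited scale. Size factors gave the same 1 and 6, with 4604 of 9343 higher. The median over all genes moved from 0.31 to -0.05 and -0.02. The factor higher under all 3 scalings was EBF1. EBF1, the pioneer factor that opens B-cell chromatin early in the lineage (ENSG00000164330, hg38 chromosome 5, 158695920 to 159099917), ran from 17.9 to 113 CPM in Z138 with a median of 60.3, against 3.20 to 112 CPM in JEKO-1 with a median of 18.1. The ranges overlapped, and the means were higher in Z138 in 6 of 7 shared treatments (log2 fold change 1.77, SE 0.36, adjusted p = 3.51e-05, and 1.30 with mitochondrial genes left out). SPIB was also higher (1.27, SE 0.40, adjusted p = 0.00609), as was IRF4 (0.90, SE 0.22, adjusted p = 0.00059). Both calls were lost with mitochondrial genes left out, at 0.77 for SPIB (adjusted p = 0.0973) and 0.37 for IRF4 (adjusted p = 0.0957), and with size factors, at 0.81 (adjusted p = 0.0668) and 0.42 (adjusted p = 0.0581).

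The 4 factors lower in Z138 than in JEKO-1 were SPI1, POU2F2, BACH2 and IRF8. SPI1, or PU.1 (ENSG00000066336, hg38 chromosome 11, 47354860 to 47409370), had a median of 13.1 CPM over the 13 Z138 libraries and 26.8 over the 15 of JEKO-1 (log2 fold change -1.48, SE 0.31, adjusted p = 6.99e-05). Its size rested on which Z138 libraries were taken. In the fit with a term for the Z138 libraries whose names end in A, the difference was -0.61 (SE 0.31, adjusted p = 0.0976) for the libraries without that letter and -2.49 (SE 0.33, adjusted p = 9.88e-09) for those with it. POU2F2 had medians of 49.7 and 65.2 CPM (-1.36, SE 0.31, adjusted p = 0.000221). The POU2F2 libraries of Z138 stayed at or below 90.4 CPM, while those of JEKO-1 reached 293. BACH2 was lower in 7 of 7 shared treatments (-0.82, SE 0.28, adjusted p = 0.0103). PAX5, POU2AF1 and BCL6 did not pass the test between these lines on the deposited scale. PAX5 and BCL6 were called lower in Z138 with mitochondrial genes left out (-0.81, adjusted p = 0.0371, and -0.96, adjusted p = 0.0073) and with size factors (-0.76, adjusted p = 0.038, and -0.88, adjusted p = 0.0123).

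Between the 2 MINO cultures, SPIB and BACH2 were lower in MINO-VR, 2 of 10 factors where 5.57% of genes were called (1.93% lower). SPIB, an ETS factor of B cells and plasmacytoid dendritic cells (ENSG00000269404, hg38 chromosome 19, 50418938 to 50431315), stood at 625 CPM in MINO-P CON and 233 in MINO-VR CON, at 104 and 16.8 CPM after BTZ, and at 181 and 57.5 after YM155. Its mean was lower in MINO-VR in 8 of 9 shared treatments, the exception being S63845, and the fit gave -1.52 (SE 0.40, adjusted p = 0.0112). BACH2, a repressor of plasma-cell genes and of HMOX1 (ENSG00000112182, hg38 chromosome 6, 89926528 to 90296844), stood at 53.2 and 17.8 CPM in the untreated libraries, and at 145 and 49.0 after BTZ. It was lower in MINO-VR in 9 of 9 shared treatments, and the fitted difference was -1.03 on the log2 scale (SE 0.28, adjusted p = 0.0136). Both calls held in all 37 alternatives tried. SPI1 had higher means in MINO-VR in 9 of 9 treatments (0.86, SE 0.31, adjusted p = 0.0996), and IRF4 lower means in 9 of 9 (-0.68, SE 0.22, adjusted p = 0.0585), without passing the test in this fit. SPI1 was called in 3 of 37 alternatives, among them the letter A of the Z138 names as a block (0.82, adjusted p = 0.0424). IRF4 was called in 4 of 37. These were mitochondrial genes left out (-0.71, adjusted p = 0.013), size factors (-0.71, adjusted p = 0.01075), array weights (-0.63, adjusted p = 3.96e-05) and libraries above 50% mitochondrial share left out (-0.68, adjusted p = 0.018).

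BTZ was followed by lower levels of 5 of the 10 factors and a rise in none. PAX5, SPIB, POU2F2, IRF4 and IRF8 fell. Of all genes, 24% were called, 22.3% lower and 1.75% higher. The median log2 fold change was -1.22 over the 10 factors against -0.42 over all genes tested. That overall median moved to -0.17 with mitochondrial genes left out and to -0.07 with size factors, and the split of calls moved from 288 higher of 3966 to 838 of 3204 and 1378 of 3266. The values below are on the deposited scale unless stated. All single-agent comparisons share the same 5 CON libraries. Where a factor's libraries lay all below or all above CON, the share of all genes doing so is not given here.

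PAX5, the factor that commits and holds cells in the B lineage (ENSG00000196092, hg38 chromosome 9, 36833269 to 37034269), was at 402 CPM in MINO-P CON and 58.8 after BTZ. In MINO-VR it was at 347 and 42.7 CPM, and in Z138 at 289 and 148 in CON and 19.4 after BTZ. JEKO-1 had 268 CPM in CON and 20.9, 18.6 and 251 after BTZ. Every BTZ library was below its own line's CON, though JEKO-1 BTZ replicate 3 only slightly so, and with mitochondrial genes left out that library was not below. The fitted log2 fold change was -2.76 (SE 0.55, adjusted p = 0.000216), and the call held in all 21 alternatives, between -3.25 and -2.22.

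SPIB fell by a similar size. BTZ left 104 CPM of 625 in MINO-P, 16.8 of 233 in MINO-VR and 65.0 in Z138, whose CON libraries held 223 and 172. JEKO-1 went from 328 CPM to 8.06, 8.14 and 51.1. All 6 BTZ libraries lay below all CON libraries of all lines, though how many of all genes did so is not given here. The fit put the change at -2.94 (SE 0.62, adjusted p = 0.000419) and the call held in all 21 alternatives, between -3.22 and -2.41.

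IRF4 was at 435 CPM after BTZ in MINO-P, 157 in MINO-VR and 245 in Z138, in each case below the untreated libraries given above. JEKO-1 held 65.6, 76.2 and 407 CPM against 227 in CON, so its BTZ libraries lay on both sides of the control. Over all lines the fit gave -1.59 (SE 0.34, adjusted p = 0.000586). It lost the call in 1 of 21 alternatives, with JEKO-1 and Z138 only (-1.45, adjusted p = 0.0697).

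IRF8 was lower than its own line's CON in every BTZ library, and the share of all genes that were is not given here. The JEKO-1 libraries showed the widest gap, 402 CPM in CON against 69.2, 63.3 and 106. MINO-P held 15.1 against 21.3 CPM, MINO-VR 7.03 against 15.3, and Z138 4.61 against 14.8 and 9.81. Over the 4 lines IRF8 changed by -1.28 (SE 0.39, adjusted p = 0.0118). The call was lost in 4 of 21 alternatives, among them mitochondrial genes left out (-0.90, adjusted p = 0.0756) and the fit without the only JEKO-1 CON library (-0.99, adjusted p = 0.0976).

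POU2F2, or OCT2 (ENSG00000028277, hg38 chromosome 19, 42086110 to 42196586), was at 271, 381, 220, 59.4 and 40.7 CPM in CON, in the order MINO-P, MINO-VR, JEKO-1 and the pair of Z138 libraries. After BTZ it was at 145 in MINO-P, 138.4 in MINO-VR, 30.7, 24.6 and 232 in JEKO-1, and 12.1 in Z138. JEKO-1 BTZ replicate 3 lay above its control, and the other 5 libraries lay below theirs. Its fitted change of -1.46 (SE 0.48, adjusted p = 0.0209) was the least stable of the 5, with the call lost in 9 of 21 alternatives, at -1.09 with mitochondrial genes left out (adjusted p = 0.0666).

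The other 5 factors did not pass the test after BTZ. EBF1 had a log2 fold change of -0.86 (adjusted p = 0.258), SPI1 -1.03 (0.112) and POU2AF1 -1.16 (0.158). SPI1 was called with the letter A of the Z138 names as a block (-1.20, adjusted p = 0.0218). BACH2 was the only one whose sign turned between alternatives, at 0.18 in the full fit (adjusted p = 0.802) and -0.67 with JEKO-1 and Z138 only. Its CPM after BTZ was 145 in MINO-P and 49.0 in MINO-VR, above their controls, and 21.5 in Z138, below both of its controls. The JEKO-1 BTZ libraries lay on both sides of their BACH2 control of 96.6 CPM. Replicate 3 held 215.5 CPM, 4.38 times the mean of replicates 1 and 2. With mitochondrial genes left out, the BTZ libraries lay above CON in 3 lines and below it in 1. BCL6, the germinal-centre repressor (ENSG00000113916, hg38 chromosome 3, 187721377 to 187745726), was at 0.90 (SE 0.44, adjusted p = 0.127). It was called with size factors, with array weights and without the libraries above 50% mitochondrial share, and its sign held in all 21 alternatives.

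**Figure D2:**
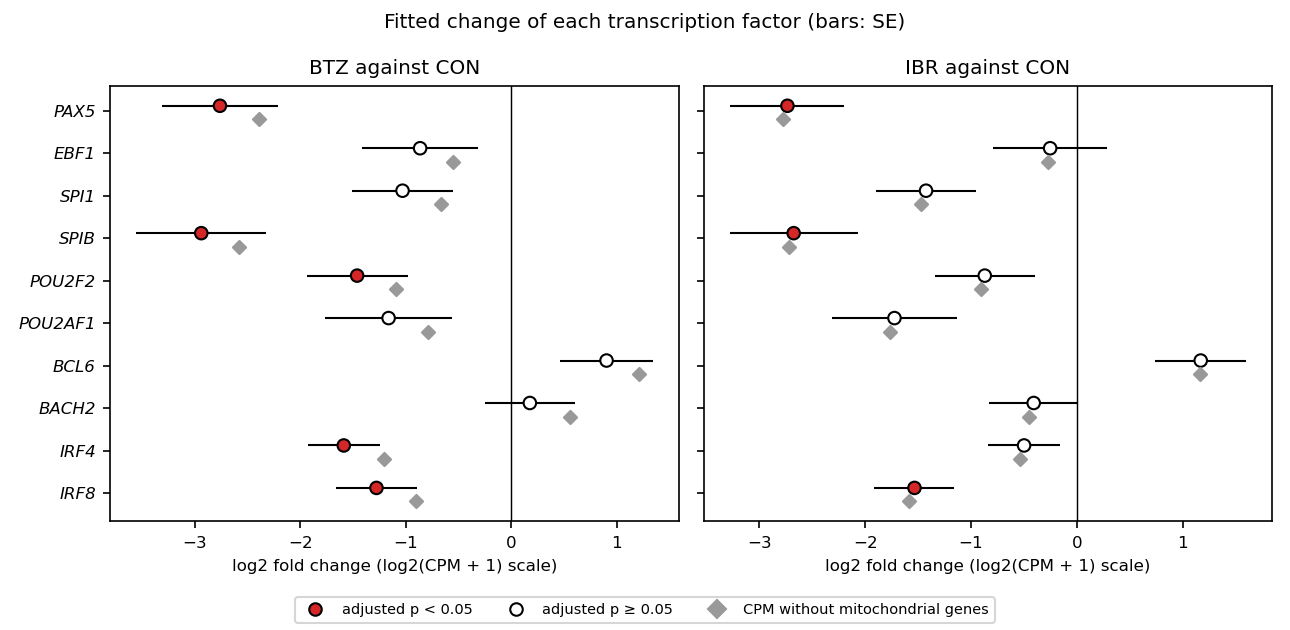
Fitted log2 fold change of each of the 10 genes in BTZ against CON (left) and IBR against CON (right), on the log2(CPM + 1) scale. Circles are the fit on the deposited scale with bars of 1 SE, filled where the adjusted p was under 0.05, and grey diamonds are the same fit with mitochondrial genes left out of the CPM. PAX5 and SPIB lie near -2.7 to -2.9 in both panels, and BCL6 lies above 0 in both.

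After IBR, 3 of the 10 factors were called, all lower: PAX5, SPIB and IRF8. Calls were made for 6.95% of all genes, 3.89% lower and 3.07% higher, and the median log2 fold change was -1.15 over the 10 factors against 0.02 over all genes tested. PAX5 was at 34.5, 31.5 and 123 CPM in MINO-P, 32.0, 21.2 and 115 in MINO-VR, 51.5, 50.4 and 105 in JEKO-1, and 12 and 27 in Z138. All 11 IBR libraries lay below their line's CON and below every CON library of any line. For this, too, the share of all genes is not given here. Its log2 fold change was -2.73 (SE 0.54, adjusted p = 0.00123).

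SPIB showed a difference between lines in its raw values. MINO-P held 14.1, 14.7 and 92.7 CPM after IBR, MINO-VR 9.49, 6.17 and 23.4, and JEKO-1 6.77, 6.02 and 62.4. These 9 libraries all lay below every CON library. Z138 held 67.3 and 209 CPM, and the latter lay between its CON values of 223 and 172. Over all lines the change was -2.68 (SE 0.60, adjusted p = 0.00432), and the limma F-test of whether the change differed by line gave an adjusted p of 1.

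IRF8 after IBR was at 57.3, 71.6 and 62.6 CPM in JEKO-1, all far below the 402 CPM of its CON. In MINO-P it was at 3.13, 3.39 and 21.3 CPM, with replicate 3 equal to the CON value of 21.3 at this rounding. MINO-VR held 8.86, 10.7 and 6.69, and Z138 6.72 and 5.58, all below their controls. The fitted change was -1.53 (SE 0.38, adjusted p = 0.00941). Without the only JEKO-1 CON library it was -1.23 (adjusted p = 0.0662).

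In the MINO lines IBR and CON were in different library series. With JEKO-1 and Z138 only, where treatments share a series, the log2 fold changes were -2.58 for PAX5 (adjusted p = 0.125), -2.39 for SPIB (0.166) and -1.65 for IRF8 (0.0731), and none of the 10 was called. The sizes stayed near those of the full fit, and the fit held fewer libraries. In 25 of the 26 alternatives for PAX5 and for SPIB the call held.

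SPI1 and the OCT2 coactivator gene POU2AF1 (ENSG00000110777, hg38 chromosome 11, 111352255 to 111455631) missed the threshold narrowly after IBR. SPI1 was at -1.42 on the log2 scale (SE 0.47, adjusted p = 0.0539) and was called in 9 of 26 alternatives. Among these were mitochondrial genes left out (-1.47, adjusted p = 0.0333), size factors (-1.39, adjusted p = 0.0439) and the block on the letter A (-1.40, adjusted p = 0.0191). POU2AF1 had -1.72 (SE 0.59, adjusted p = 0.065) and was called in 7 of 26. These included mitochondrial genes left out (-1.765, adjusted p = 0.0186) and size factors (-1.718, adjusted p = 0.0166). In MINO-P, POU2AF1 stood at 127 CPM in CON and 12.2, 24.4 and 147 after IBR, so replicate 3 lay above the control. In the other lines all 8 IBR libraries lay below their own CON, at 23.9, 18.3 and 84.6 CPM in MINO-VR, 34.0, 31.8 and 93.0 in JEKO-1 and 38.6 and 21.0 in Z138.

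BCL6 ran the other way. It was at 17.2, 7.22 and 7.62 CPM after IBR in MINO-P, where CON held 3.43. MINO-VR held 8.73, 15.1 and 6.05 against 1.08, JEKO-1 5.50, 3.75 and 3.52 against 2.82, and Z138 3.06 and 2.84 against 1.62 and 0.538. Every IBR library was above its own line's CON, and the share of all genes for which this held is not given here. The MINO libraries of IBR and CON were from different series. Its fitted change of 1.17 (SE 0.43, adjusted p = 0.0862) did not pass the test in the full fit, was called in 2 of 26 alternatives, and was above 0 in all of them. On this log2(CPM + 1) scale the change of a gene at these levels is understated.

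IRF4, EBF1, POU2F2 and BACH2 were not called after IBR. IRF4 was at -0.50 (adjusted p = 0.418), with values of 401 to 489 CPM in MINO-P and 289 to 297 in MINO-VR, below their controls, and 312, 335 and 391 in JEKO-1, above the 227 CPM of its control. The Z138 libraries also lay below their controls, the lower of them at 171 CPM. Line-by-line estimates of IRF4 were -1.47 in MINO-P, -1.43 in MINO-VR, 0.64 in JEKO-1 and -1.61 in Z138. BACH2 was at -0.41 (adjusted p = 0.638). The line-by-line estimates of BACH2 were 0.82 in MINO-P, 1.55 in MINO-VR, -0.49 in JEKO-1 and -1.66 in Z138, and their limma F-test had an adjusted p of 1. EBF1 (-0.25) and POU2F2 (-0.87) had adjusted p-values of 0.846 and 0.283.

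Whether the response to BTZ or IBR differed between the 4 lines was tested for each gene by a limma F-test, after averaging 8 pairs of libraries outside Z138, each having the same name with and without a final a. The 5 Z138 pairs whose names differ by a final A were kept as separate replicates. None of the 10 factors was called for BTZ, where 0.074% of 16225 genes were, or for IBR, where 0.185% were. At an unadjusted p under 0.05 there were 0 factors for BTZ and 1 for IBR, which was BACH2. Of the 8 line estimates, 7 then rested on 1 library on at least 1 side and 2 of these (BTZ in MINO-P and MINO-VR) on 1 on both, with SEs of 0.61 to 1.66, so differences between lines below several-fold were not detectable.

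**Figure D3:**
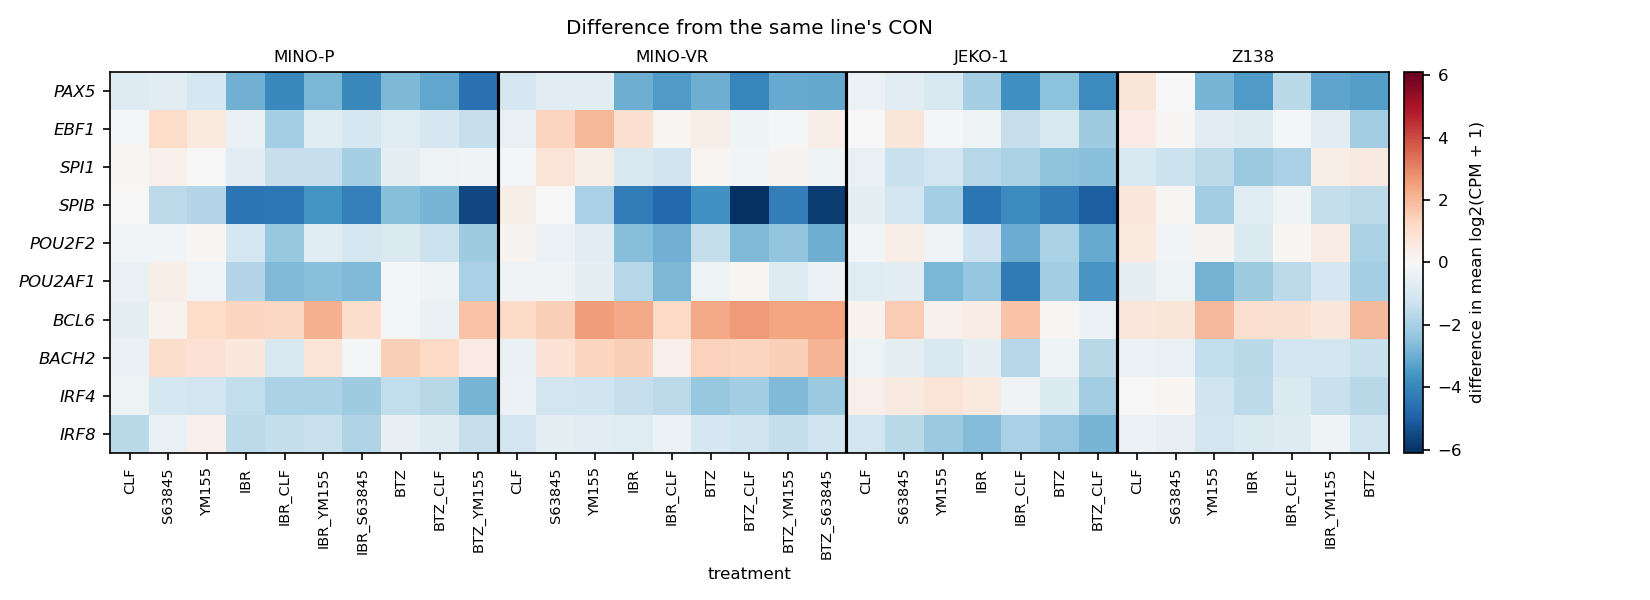
Difference in mean log2(CPM + 1) between each treatment and CON of the same line, for the 10 genes (rows) in each group of line and treatment other than CON (columns, by line). Blue is lower than CON and red higher. PAX5 and SPIB are blue across the IBR and BTZ columns of all 4 lines, and BCL6 is mostly red.

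YM155 alone gave 0 called factors in limma, where 0.273% of genes were called, and 3 at an unadjusted p under 0.05: BCL6, IRF8 and PAX5. Of the called genes, 32 of 45 were higher on the deposited scale, 127 of 197 with mitochondrial genes left out and 98 of 190 with size factors. PAX5 was at 188, 216, 136 and 28.5 CPM in MINO-P, MINO-VR, JEKO-1 and then Z138, below CON in 4 of 4 lines (log2 fold change -1.35, SE 0.64, adjusted p = 0.365). SPIB was at 181, 57.5, 76.6 and 44.5 CPM, again below CON in 4 of 4 (-1.10, adjusted p = 0.542). BCL6 was at 8.6, 11, 3.58 and 6.88 CPM, above CON in 4 of 4 (1.36, SE 0.51, adjusted p = 0.235). In the MINO lines these CPM values of YM155 and CON come from different library series. The share of all genes below or above CON in 4 of 4 lines is not given here.

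S63845 and CLF gave no called factor. For S63845, 0 of 10 factors and 0% of genes were called, with 0 factors and 414 genes at an unadjusted p under 0.05. PAX5 was at 181 and 352 CPM in MINO-P, 224 in MINO-VR, 167 in JEKO-1, and 188 and 239 in Z138 (log2 fold change -0.38, adjusted p = 1.00). For CLF, 0 of 10 and 0% of genes were called, with 1 factor, IRF8 (-0.82, SE 0.38, adjusted p = 1.00), and 58 genes at an unadjusted p under 0.05. IRF8 after CLF was at 6.19 CPM in MINO-P, 6.28 in MINO-VR, 367 and 92.5 in JEKO-1, and 8.96 and 9.17 in Z138, below its own line's CON in every library. How many of all genes were so is not given here.

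No factor was called when a second agent was added. CLF added to IBR gave 0 calls among the 10 and 0.0121% among all genes, with 1 factor at an unadjusted p under 0.05. That factor was BACH2, at 29.1 and 23.8 CPM in MINO-P, 24.1 and 20.9 in MINO-VR, 28.4 and 28.3 in JEKO-1, and 33.3 and 18.1 in Z138 (-0.91, SE 0.32, adjusted p = 0.453). CLF added to BTZ gave 0 calls (0% of genes), with 0 factors and 986 genes at an unadjusted p under 0.05. In MINO-VR, SPIB reached its lowest level of all 56 libraries with BTZ_CLF, at 2.60 CPM.

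BTZ added to YM155 gave 0 calls among the 10 where 0.339% of genes were called, but 4 at an unadjusted p under 0.05: PAX5, SPIB, POU2F2 and IRF4. PAX5 was at 16.1 CPM in MINO-P and 40.4 in MINO-VR (-2.27, SE 0.79, adjusted p = 0.27). IRF4 was at 172 and 119 CPM (-1.5, SE 0.49, adjusted p = 0.231). With array weights, which give noisier libraries less weight, these 4 and EBF1 were called. The share of all genes called with these weights is not given here. IBR added to YM155 gave 0 calls (0% of genes), with 1 factor, PAX5 (-1.60, SE 0.78, adjusted p = 0.999), and 310 genes at an unadjusted p under 0.05.

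Genes around the factors were followed as lists chosen with earlier results of these data known. Over all genes tested, 22.3% were called lower and 1.75% higher after BTZ, a split that depended on the scaling as given above. After IBR, 3.89% were called lower and 3.07% higher. Of 14 tested B-cell genes that PAX5, EBF1, PU.1 or octamer factors are known to activate, 12 fell after BTZ and 0 rose (median log2 fold change -1.85). The largest falls were in CIITA (-3.35), the master regulator of MHC class II, CD72 (-2.47), VPREB3 (-2.44) and CD79B (-2.27), a chain of the B-cell receptor complex. After IBR, 6 of 14 fell (median -0.92), with CD22 at -2.64, VPREB3 at -2.46 and CIITA at -2.42. CD79A was at -0.11 after IBR (adjusted p = 0.755) and -2.15 after BTZ (adjusted p = 1.48e-05).

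Of 20 other B-lineage transcription factors, 10 fell after BTZ and 0 rose (median -1.56). They included LEF1 (-2.72), BCL11A (-2.37), the Ikaros gene IKZF1 (-2.33) and MYB (-2.29). After IBR 3 of the 20 fell (median -1.04), namely IKZF1 (-2.18), ID3 (-1.83) and LEF1 (-1.82).

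Plasma-cell genes did not rise as a list. After BTZ, 8 of 12 fell and 1 rose (median -1.79). MZB1 (-2.77), DERL3 (-2.65) and SDC1 (-2.39), which encodes CD138, were lower, while SLAMF7 was higher (2.54). After IBR, JCHAIN (-3.36) and SDC1 (-1.77) fell and 0 of 12 rose (median -0.18). PRDM1, which encodes the plasma-cell regulator BLIMP1 and is repressed by BCL6 and BACH2, had log2 fold changes of -0.03 (adjusted p = 0.974) and 0.45 (adjusted p = 0.675).

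Of 12 genes known as repressed by BCL6 or BACH2, 2 rose and 2 fell after BTZ (median -0.48), and 1 rose and 2 fell after IBR (median -0.65). HMOX1, the haem oxygenase gene that BACH2 represses, rose in both (4.38 after BTZ, adjusted p = 0.000339, and 5.73 after IBR, adjusted p = 6e-05). CD44 rose (1.00) and CDKN1A fell (-1.33) after BTZ, and CD69 (-2.24) and CXCL10 (-1.70) fell after IBR. Between lines, 9 of the 12 plasma-cell genes were higher in Z138 than in JEKO-1 and 1 was lower, among them JCHAIN (5), SDC1 (3.49) and CD38 (2.94) higher and SLAMF7 (-3.35) lower. The list's median was 0.94 against 0.31 over all genes tested, of which 40.4% were called higher and 17.1% lower. With mitochondrial genes left out, 5 were higher and 2 lower. The same scaling left 10 of 14 genes activated by B-cell factors, 7 of 20 other factors and 7 of 12 plasma-cell genes lower after BTZ, and raised the other factors lower after IBR from 3 to 6, with 1 higher.

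**Figure D4:**
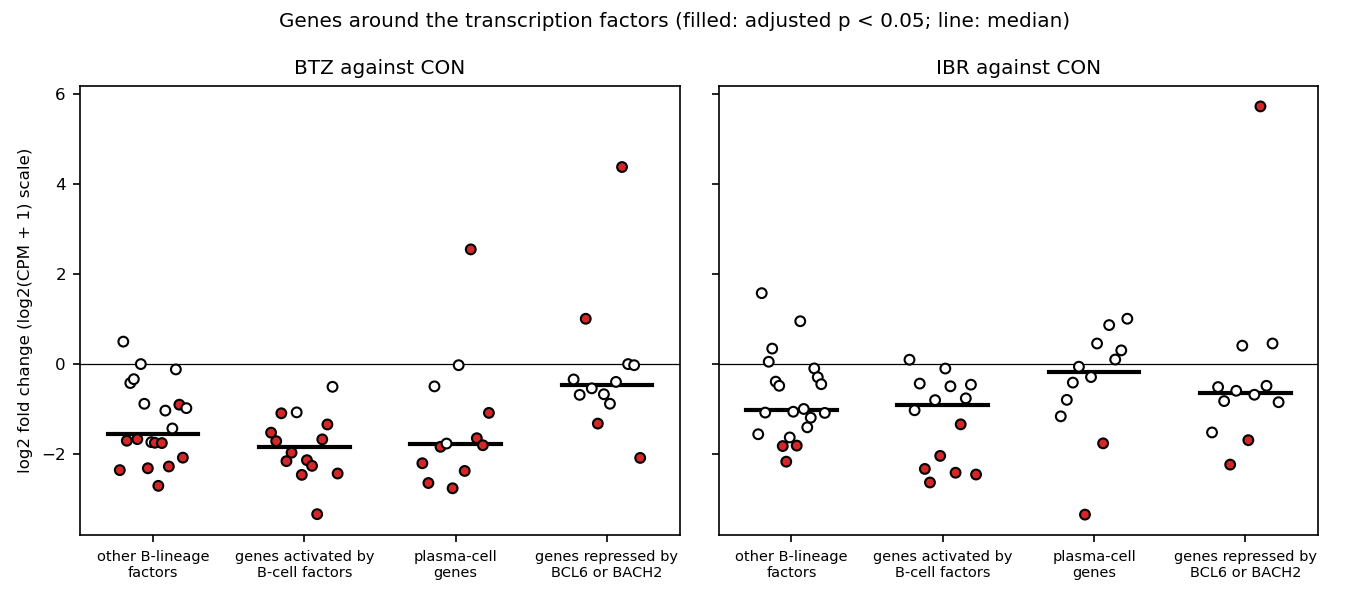
Fitted log2 fold change in BTZ against CON (left) and IBR against CON (right) for 4 gene lists: 20 other B-lineage transcription factors, 14 genes activated by B-cell factors, 12 plasma-cell genes and 12 genes repressed by BCL6 or BACH2. Points are genes, filled where the adjusted p was under 0.05, and lines are list medians. The genes activated by B-cell factors lie below 0 in the BTZ panel, and HMOX1 is the highest point of both panels.

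How far the factors varied together across treatments differed by pair. Over the 37 means of line and treatment, with mitochondrial genes left out and each line's mean subtracted, the 45 pairs of factors had a median Pearson r of 0.338, against 0.061 over all pairs of the 11047 genes with a mean of at least 5 CPM. Of the 45 pairs, 12 lay above 0.5 (26.7%, against 8.98% of all gene pairs) and 11 below 0 (24.4%, against 43.3%). PAX5 and SPIB were the closest pair (r = 0.843), followed by POU2F2 and SPIB (0.806) and IRF4 and PAX5 (0.797). The pairs below 0 all held BCL6 (8 pairs) or BACH2 (3 pairs). BCL6 ran against SPIB (-0.59), PAX5 (-0.548) and POU2AF1 (-0.527), and BACH2 had r of -0.29 with SPIB, -0.257 with IRF4 and -0.159 with POU2F2. These points share libraries and CON groups and are a description. Among the same 11047 genes, the 3 most like PAX5 were ITGA4 (r = 0.927), SMARCC1 (0.919) and IKZF1 (0.919), and the 3 most like SPIB were NIBAN3 (0.912), TGIF2 (0.894) and LYN (0.888). The closest to IRF4 was DHTKD1 (0.861), to POU2F2 SP4 (0.892), to POU2AF1 UBASH3B (0.872), to EBF1 ELAPOR1 (0.833), to BCL6 CLEC2B (0.779), to BACH2 KATNAL1 (0.776) and to SPI1 B3GNT7 (0.743). IRF8 had no close match, its nearest being GCSAM (0.690).

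Libraries of the same group did not always agree. In the 4 groups of 3 libraries (MINO-P IBR, MINO-VR IBR, JEKO-1 IBR and JEKO-1 BTZ), replicates 1 and 2 carry library names that differ by a final letter, and replicate 3 has a name of its own. With mitochondrial genes left out, replicate 3 was above the mean of the other two in 4 of 4 groups for PAX5 (1.90 to 4.59 times), EBF1 (2.27 to 12.5), SPIB (2.27 to 8.97), POU2F2 (2.99 to 3.90), POU2AF1 (2.60 to 7.37) and BACH2 (1.43 to 1.96). It was below in 4 of 4 for BCL6, at 0.468 to 0.718 times. Each library was left out 1 at a time, and the joint part of the replicate 3 libraries in the results above was not tested. Without JEKO-1 BTZ replicate 3, EBF1 and POU2AF1 were called lower after BTZ as well (adjusted p = 0.0126 and 0.0203). In Z138, the second library of a pair was lower than the first in 5 of 5 pairs for SPI1 (0.12 to 0.755 times) and for POU2AF1 (0.231 to 0.683). Across all genes tested, the differences within these 5 pairs correlated between treatments at r of 0.234 to 0.621, so the letter was also fitted as a block. For the 5 of 5 and the 4 of 4 counts, the share of all genes is not given here.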

How the data were processed

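RNA was measured by poly-A RNA-seq (TruSeq RNA v2, paired ends, per the labels' protocols) in 56 libraries. The deposited values were log2(CPM + 1), made by the authors. Undoing the log2 gave sums of 999984 to 1000009 CPM per library. The submitters' processing notes name the build hg38 and Partek. The aligner, counter, annotation and use of strand are not given in the sources used here. Between 77.5% and 90.5% of low values per library were whole numbers of reads, within 0.05 read, so no count model was used. An unnamed row, at most 0.000773% of a library, was left out. Depth was 5.52 to 21.6 M reads, median 16.0 M, and floors cover counting error only.

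Treatment and line comparisons came from 1 model in limma 3.58.1 (R 4.3.3, trend) over the 56 libraries, its terms being cell line, treatment and library series, for 16498 genes with at least 1 CPM in 2 libraries, and a gene was called where its p, adjusted by Benjamini-Hochberg over all of them, was under 0.05. All p-values in the text are limma's. Fold changes on the log2(CPM + 1) scale are understated for low genes. The difference between lines was an F-test on cell means. Replicate numbers follow the order of the series and only name libraries. The script was tested on simulated data. Alternatives left out mitochondrial genes, used size factors, array weights, a pseudocount of 0.1, no filter or no series term, averaged the 8 name pairs outside Z138, used JEKO-1 and Z138 only, dropped libraries above 50% mitochondrial share, and left out each library. After the data were seen, a replicate block was added for the 5 Z138 pairs whose library names differ by a final A. These deviated together (r above 0.1 in 10 of 10 pairs of treatments), though no label says what the letter marks. Exon lengths are from GENCODE release 29. All 10 factors are named in every comparison. Of another list, at most 4 called genes with the largest change are named, beside list members named for their role, which were chosen after their values were seen. Some list members are not reported here by name. The factors, lists and tests were chosen with earlier results of these data known.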

Additional observations from a re-analysis of the deposited data

Results flagged for a closer look

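The change from IBR to IBR_CLF ran in opposite directions between lines for BCL6 and IRF4 when mitochondrial genes were left out of the CPM. BCL6 was higher with IBR_CLF than with IBR in every JEKO-1 library, by 2.33 in mean log2(CPM + 1), and different by -1.21 in MINO-VR, where every IBR_CLF library was lower. The JEKO-1 IBR_CLF libraries were both among the 6 with over 50% mitochondrial reads. IRF4 moved by 0.19 in JEKO-1, -0.49 in MINO-P and -0.29 in MINO-VR, and on the deposited scale IRF4 was lower in all 3 lines (184 and 203 CPM in JEKO-1 IBR_CLF against 312 to 391 in IBR). These differences between lines were not tested.

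Libraries of 2 single-library treatments entered no comparison of their own, and 3 of their values were at least 1.5 times the untreated level of the same line. BCL6 was at 8.313 CPM in MINO-P IBR_S63845, against 3.43 in CON, and at 10.079 CPM in MINO-VR BTZ_S63845, against 1.08. BACH2 was at 78.104 CPM in MINO-VR BTZ_S63845, against 17.8 in CON. Most other values in these libraries were lower than CON, 13 of 20 by at least 1.5 times. SPIB was at 3.24 CPM in MINO-VR BTZ_S63845, 71.9-fold below its CON, and at 34.0 CPM in MINO-P IBR_S63845, 18.4-fold below. PAX5 was 8.98-fold and 15.9-fold below CON in the same libraries, and IRF4 4.90-fold and 4.55-fold. With 1 library on each side these have no replicate check. The treated libraries were in the MCL series and their CON libraries in the HK series. In these ratios treatment and series cannot be told apart.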

How the results depend on the processing

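Among 19 calls of a factor over the comparisons, 576 of 601 recalculations kept direction and call, 25 lost the call and 0 reversed direction, and 10 of the 19 calls were never lost. Most recalculations left out 1 library and shared all the others with the full fit, so agreement there is a weak check. Calls gained under an alternative are outside this count. With mitochondrial genes left out, the number of factors called was 3 for BTZ, 5 for IBR and 1 for JEKO-1 against MINO-P. With size factors it was 5 for IBR and 1 for JEKO-1 against MINO-P. IBR gave 8 with no series term, 0 with JEKO-1 and Z138 only (where BTZ gave 3), 7 with array weights and 5 without the libraries above 50% mitochondrial reads. Array weights gave 1 for IBR_CLF against IBR, 5 for BTZ_YM155 against YM155 and 4 for MINO-VR against MINO-P. Leaving out 1 library gave 3 to 7 for BTZ, the lowest without JEKO-1 CON replicate 1 and the highest without JEKO-1 BTZ replicate 3. For IBR it gave 2 (without JEKO-1 CON replicate 1) to 5 (without MINO-P IBR replicate 3), and for MINO-VR against MINO-P 2 to 3. Where fewer libraries or another scaling was not the construction itself, the cause was not tested. The replicate block on the letter A of the Z138 names, chosen after seeing the data, gave 6 factors for BTZ, 4 for IBR and 3 for MINO-VR against MINO-P, each with SPI1 added, and changed no other call of a factor. For most of these settings the share of all genes called is not given here. A change in the counts therefore need not be particular to the factors. Low reads limit BCL6 most, at 0.538 CPM in its lowest library.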
